A study of Bos grunniens with 18 samples.

Results

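The matrix metalloproteinases (MMPs) and their tissue inhibitors (TIMPs) were followed through postnatal development of the yak testis. The set was chosen by gene symbol and names 10 genes, the inhibitors TIMP1, TIMP2, TIMP3 and TIMP4, the secreted enzymes MMP2, MMP9 and MMP11, and the membrane-type enzymes MMP14, MMP15 and MMP16. Of these, 9 had a row among the 22183 genes of the deposited table, and 8 passed the filter on low counts and were tested. TIMP1 was not analysed here, and MMP9 was too low to test.

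The tissue came from male yaks (Bos grunniens) of a single cooperative, with 3 animals castrated at 6 months (Y6M), 3 at 18 months (Y18M) and 3 at 4 years (Y4Y). All were described as healthy, all were anaesthetised for the surgery, and no agent or genotype distinguished the groups. Testis pieces were washed and frozen whole, so that tubule and interstitial cells were extracted together, and each animal gave 1 ribosomal RNA-depleted library. The sample titles give these ages, whereas another label gives infancy for Y4Y, adolescence for Y6M and adulthood for Y18M, and the titles were followed. The 9 libraries held 22.95 to 33.12 M estimated counts.

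MMPs are zinc-dependent enzymes that cut collagens, laminins and other components of the extracellular matrix, and they also release or trim signalling proteins. They are made as inactive precursors, and TIMPs block the active enzymes by filling the catalytic site. TIMP2 has an additional role, since it bridges the precursor of MMP2 to the membrane enzyme MMP14, which helps to activate it. In the mammalian testis this system is known for its part in remodelling the basement membrane around the tubules and the junctions between Sertoli cells.

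Levels are given below as FPKM (fragments per kilobase of transcript and per 1 M mapped fragments), as deposited, when genes are compared with each other. Differences between ages are log2 fold changes ± SE of counts per 1 M counts (CPM) from an edgeR quasi-likelihood fit of 9 libraries, with Benjamini-Hochberg adjustment over 16742 genes and a threshold of 0.05. Values after ± beside a group mean are SDs over 3 animals. These are whole-tissue libraries, and FPKM and CPM are levels relative to a library. Fewer cells of a type, less RNA per cell and more RNA from other cells cannot be told apart in them.

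The inhibitor TIMP2 dominated the family at 6 months and was much lower at both later ages. TIMP3, the proteinases MMP2, MMP14 and MMP16 were also lower at 18 months and at 4 years than at 6 months. TIMP4 and MMP11 showed no difference past the threshold, and MMP15 varied most among the 18-month animals. At 18 months against 6 months, 5 of the 8 tested genes fell, none rose and 3 did not pass, with a median log2 fold change of -1.90 against 0.02 over all genes tested. In that comparison 59.9% of all genes tested passed the threshold, 32.7% higher and 27.1% lower at 18 months. The same 5 genes fell at 4 years against 6 months, where the median was -2.44 against -0.06 over all genes, 73.9% of all genes passed, 36.7% higher and 37.2% lower. The 5 genes had no library of an older animal within the 6-month range, a pattern that 31.8% of all genes showed at 18 months and 42% at 4 years. Age therefore moved most genes of this tissue, and a call alone does not set the family apart. Between 4 years and 18 months no tested member of the family passed, against 0.00597% of all genes (1 of 16742), with a median of -0.54.

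**Figure D1:**
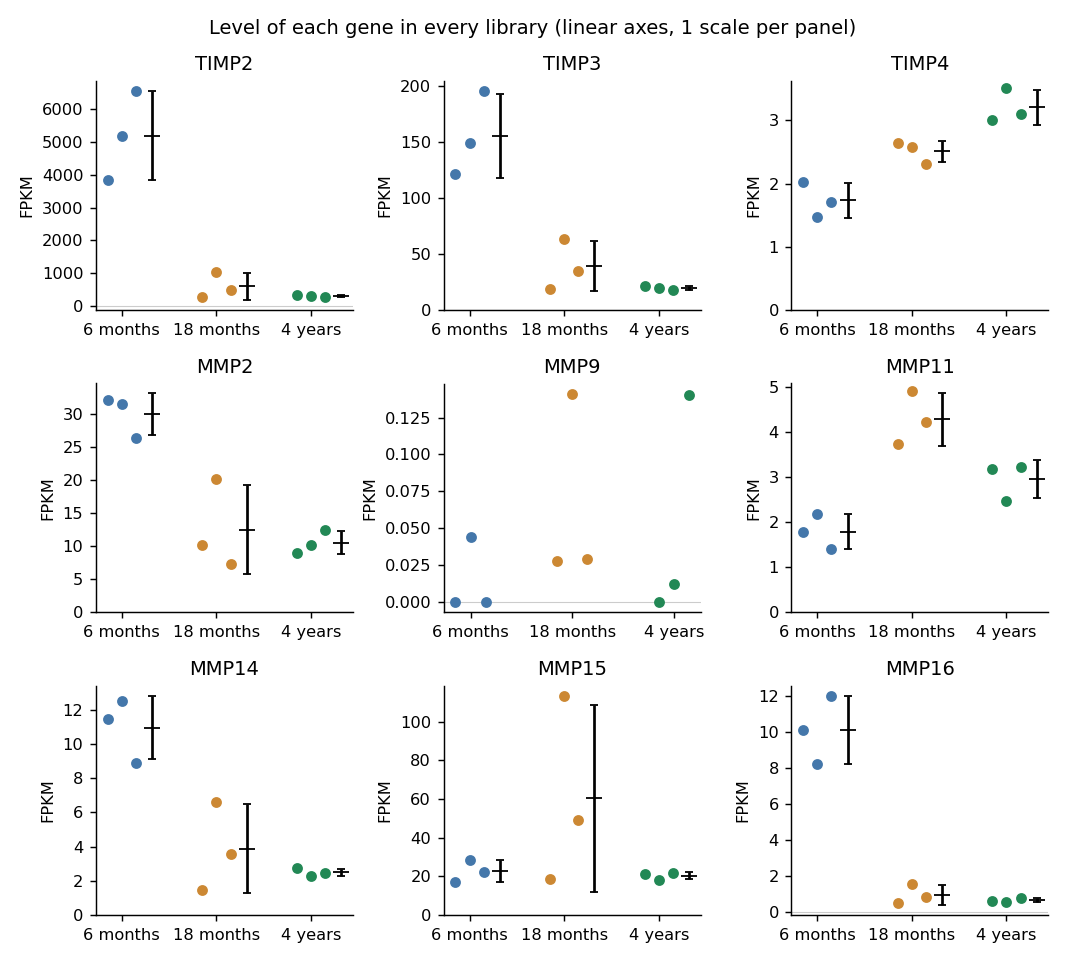
FPKM of each gene (linear axes, 1 scale per panel) in the 3 libraries of each age; points are animals and horizontal marks with bars are the mean and SD, with no bar for MMP9. TIMP2, TIMP3, MMP2, MMP14 and MMP16 are highest in all 3 libraries of the 6-month animals, while MMP15 is highest in a pair of 18-month animals.

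TIMP2 (ENSBTAG00000010899) stood at 3823, 5179 and 6527 FPKM in the 6-month animals 1 to 3. The 18-month animals had 276.0, 1045 and 484.1 FPKM, and the 4-year animals had 343.4, 297.8 and 286.3 FPKM. Every 6-month value lay above every later one, and the 18-month animals spread widely, with animal 1 below the 4-year animals in FPKM and animal 2 well above them. By FPKM it ranked 25th, 10th and 6th of all genes in the 6-month libraries, where it held 1.03%, 1.37% and 1.64% of all counts. In the older libraries its share of counts lay between 0.0708% and 0.273%. In CPM the mean was 15859 ± 4181 at 6 months, 1381 ± 816 at 18 months and 744.1 ± 110 at 4 years. The fall was 11.5-fold by 18 months (log2 fold change -3.52 ± 0.47, adjusted p = 0.00037) and 21.3-fold by 4 years (-4.41 ± 0.49, adjusted p = 0.000103). In the yak annotation TIMP2 overlaps the span of CEP295NL, which was not analysed here.

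TIMP3 (ENSBTAG00000020638), the inhibitor that binds to the matrix itself and also blocks several ADAM proteinases, followed TIMP2 at a lower level. Its FPKM values were 121.5, 148.7 and 195.4 at 6 months, 18.9, 63.0 and 35.1 at 18 months, and 21.8, 19.5 and 18.2 at 4 years. The order of the animals within the 6-month and 18-month groups was that of TIMP2, and no older library reached the 6-month range. The log2 fold change was -2.44 ± 0.39 at 18 months (5.44-fold, adjusted p = 0.000848) and -3.32 ± 0.41 at 4 years (10.01-fold, adjusted p = 0.00015), both against 6 months. TIMP3 overlaps the span of SYN3 in the yak annotation, and the use of strand in counting is not stated. Both identifiers under the symbol SYN3 rose past the threshold at 18 months and at 4 years against 6 months. The counts of TIMP3 were whole in every library, without the fractions that reads divided between genes can leave. Whether reads of SYN3 were counted as TIMP3 was not tested.

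TIMP4 (ENSBTAG00000020263), an inhibitor with a narrower tissue range known mainly from heart and brain, was low at every age. It had 2.03, 1.48 and 1.71 FPKM at 6 months, 2.64, 2.57 and 2.32 FPKM at 18 months, and 3.0, 3.52 and 3.1 FPKM at 4 years. The 4-year values lay above those of both younger groups without overlap. The log2 fold change was 0.11 ± 0.28 at 18 months (adjusted p = 0.742) and 0.53 ± 0.28 at 4 years (adjusted p = 0.112) against 6 months, and 0.42 ± 0.28 at 4 years against 18 months (adjusted p = 0.363). The call at 4 years depended on the processing, since it passed with scaling by library size alone (0.82, adjusted p = 0.0276), with RLE scaling (0.71, adjusted p = 0.0457), with only the 6-month and 4-year libraries (0.65, adjusted p = 0.0448) and with DESeq2 (0.71, adjusted p = 0.0116). TIMP4 overlaps the span of SYN2, which rose at 18 months (log2 fold change 2.02 ± 0.62, adjusted p = 0.02) and at 4 years (2.68 ± 0.63, adjusted p = 0.00412). The counts of TIMP4 were whole in every library, and showed no reads divided between genes. Whether reads of SYN2 were counted as TIMP4 was not tested.

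Among the secreted enzymes, MMP2 (ENSBTAG00000019267), the gelatinase that is widespread in connective tissue, had 32.1, 31.5 and 26.3 FPKM at 6 months. It had 10.1, 20.1 and 7.31 FPKM at 18 months and 8.96, 10.2 and 12.4 FPKM at 4 years. The 6-month animals lay above all others, and 18-month animal 2 again stood highest among the older animals. The log2 fold change was -1.87 ± 0.39 at 18 months (3.64-fold, adjusted p = 0.00315) and -2.40 ± 0.39 at 4 years (5.28-fold, adjusted p = 0.000622) against 6 months.

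MMP9 (ENSBTAG00000020676), the other gelatinase and one typical of neutrophils and macrophages, was almost undetected. It had 0, 3 and 0 counts in the 6-month libraries, 2, 9 and 2 counts in the 18-month libraries and 0, 1 and 8 counts in the 4-year libraries. A count of 0 allows up to 0.127 CPM in 6-month library 1, 0.137 CPM in 6-month library 3 and 0.102 CPM in 4-year library 1. No age difference could be assessed at this depth.

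MMP11 (ENSBTAG00000006108), a stromelysin activated inside the cell by furin, gave different pictures on the 2 scales. In FPKM it had 1.79, 2.18 and 1.41 at 6 months, 3.74, 4.90 and 4.22 at 18 months, and 3.17, 2.48 and 3.23 at 4 years, so that the 6-month animals lay below all others. In CPM the groups overlapped, at 6.33 ± 1.27, 8.24 ± 1.35 and 7.36 ± 1.38. The log2 fold change of CPM was 0.38 ± 0.27 at 18 months (adjusted p = 0.24) and 0.22 ± 0.27 at 4 years (adjusted p = 0.472) against 6 months, and the former passed with scaling by library size alone (0.78, adjusted p = 0.0456). Its counts were not whole in any of the 9 libraries, and their fractions were complementary to those of 1 gene, SMARCB1 (within 0.011 counts), which itself passed in no comparison. The counts of MMP11 are therefore uncertain, since reads appear to be divided between the pair.

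Among the membrane-type enzymes, MMP14 (ENSBTAG00000014824), the collagenase of the cell surface that activates MMP2, had 11.5, 12.5 and 8.91 FPKM at 6 months, 1.43, 6.63 and 3.57 FPKM at 18 months, and 2.73, 2.28 and 2.44 FPKM at 4 years. All 6-month values were above the rest, and the 18-month group spanned both sides of the 4-year group. MMP14 fell by a log2 fold change of -1.94 ± 0.44 at 18 months (3.84-fold, adjusted p = 0.00467) and -2.49 ± 0.45 at 4 years (5.61-fold, adjusted p = 0.00097). SLC7A7, whose span overlaps MMP14 in the yak annotation, had log2 fold changes of -0.83 ± 0.34 (adjusted p = 0.0617) and -1.16 ± 0.35 (adjusted p = 0.0138) in the same comparisons. MMP14 counts were whole in every library, and showed no reads divided between genes. Whether reads of SLC7A7 were counted as MMP14 was not tested.

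MMP16 (ENSBTAG00000006877), a membrane-type enzyme also known to activate MMP2, had the lowest log2 fold change of the tested members at 18 months, within the SE of that of TIMP2. It had 10.1, 8.22 and 12.002 FPKM at 6 months, 0.452, 1.53 and 0.838 FPKM at 18 months, and 0.598, 0.533 and 0.753 FPKM at 4 years. The 6-month and later values were far apart, with 752 to 1114 counts per library at 6 months and 44 to 131 counts later. The log2 fold change was -3.88 ± 0.41 at 18 months (14.7-fold, adjusted p = 0.000134) and -4.37 ± 0.42 at 4 years (20.7-fold, adjusted p = 6.37e-05).

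MMP15 (ENSBTAG00000012919), the membrane-type enzyme more typical of epithelia, had its highest values at 18 months. It had 17.0, 28.6 and 22.3 FPKM at 6 months, 18.6, 113.3 and 48.8 FPKM at 18 months, and 21.0, 18.2 and 21.7 FPKM at 4 years. Animals 2 and 3 at 18 months exceeded every animal of the other ages, while animal 1 lay among the 4-year values. With that spread the log2 fold change was 0.93 ± 0.50 at 18 months against 6 months (adjusted p = 0.138), -0.54 ± 0.50 at 4 years against 6 months (adjusted p = 0.346) and -1.47 ± 0.51 at 4 years against 18 months (adjusted p = 0.182). Without 18-month animal 1 it passed at 18 months against 6 months (1.35, adjusted p = 0.00741) and at 4 years against 18 months (-1.89, adjusted p = 0.00753).

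**Figure D2:**
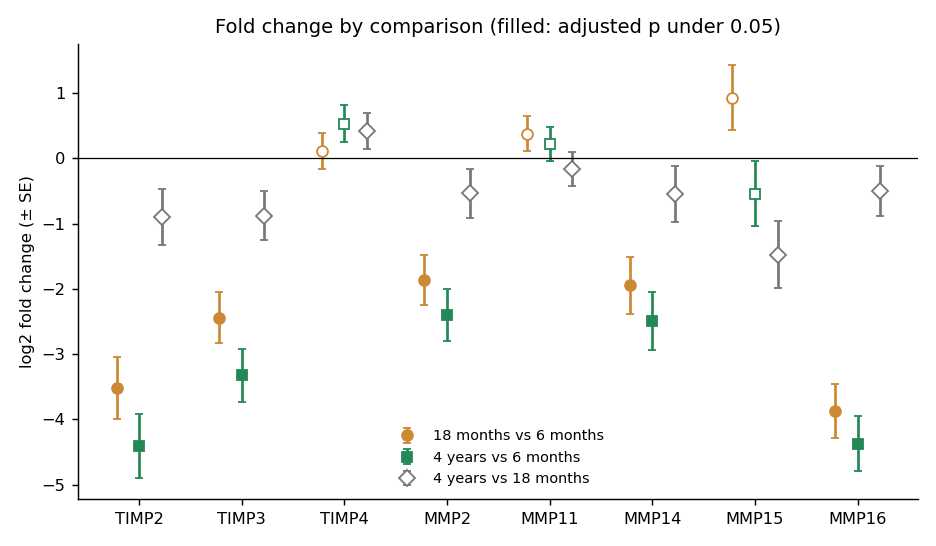
Log2 fold change ± SE of the 8 tested genes in each pair of ages, from the edgeR fit; filled points have an adjusted p under 0.05. TIMP2, TIMP3, MMP2, MMP14 and MMP16 lie between -1.87 and -4.41 in both comparisons with 6 months, and no point is filled for 4 years against 18 months.

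The 18-month animals differed among themselves along the same line in most of the family. Animal 2 was highest of the 3 for TIMP2, TIMP3, MMP2, MMP14, MMP15 and MMP16, and animal 1 lowest for all of these but MMP2. Markers of haploid germ cells ran in the reverse order, highest in animal 1 and lowest in animal 2. Their summed level was 1734 CPM in animal 1, 114.7 CPM in animal 2 and 710.6 CPM in animal 3. It was 1.82 to 3.47 CPM at 6 months and 1868 to 2328 CPM at 4 years. Without animal 1, 4 members passed at 4 years against 18 months, namely TIMP2 (log2 fold change -1.20, adjusted p = 0.0285), TIMP3 (-1.19, adjusted p = 0.0188), MMP14 (-0.92, adjusted p = 0.0302) and MMP15 (-1.89, adjusted p = 0.00753), and so did 5607 genes in all. With all 9 libraries 1 gene passed, and 3572 genes had an unadjusted p under 0.05. DESeq2 called 942 genes in the same comparison and none of the family. Without 18-month animal 2, the differences of MMP2, MMP14 and MMP16 between 4 years and 18 months were slightly positive (0.14, 0.054 and 0.0082).

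Markers of somatic cells did not all move in 1 direction. The summed level of 6 interstitial fibroblast markers was 1829 to 2319 CPM at 6 months, 138.1 to 473.5 CPM at 18 months and 141.8 to 162.1 CPM at 4 years, and all 6 fell in both comparisons with 6 months. Sertoli cell markers summed to 5060 to 5683 CPM, 427.3 to 1325 CPM and 348.9 to 407.7 CPM at the same ages, with 7 of 8 lower in both comparisons and 1 higher. INHA held most of the 6-month sum (mean of 4099 CPM), and the marker that rose was CLDN11. CLDN11 had means of 8.56, 289 and 202 CPM at the same ages, a large part of the later sums. Leydig cell markers, which with those of Sertoli cells mark the tissue as testis, summed to 15178 to 21833 CPM, 2547 to 5856 CPM and 2433 to 4357 CPM. All 9 Leydig identifiers fell in both comparisons, and INSL3 held most of their sum, with means of 11277, 3902 and 3317 CPM. Of 6 endothelial markers, 5 fell in both comparisons, while VWF rose from 12.03 ± 3.35 CPM at 6 months to 83.0 ± 37.0 CPM at 18 months (adjusted p = 0.000246) and 93.5 ± 0.523 CPM at 4 years (adjusted p = 0.00012), so their sum changed less, at 201.1 to 260.9 CPM, 139.0 to 202.8 CPM and 163.4 to 170.0 CPM. Of 5 peritubular myoid markers, 2 rose (ACTA2 and MYH11), 1 fell and 2 did not pass at 18 months, and 1 rose, 2 fell and 2 did not pass at 4 years. Their sum was 249.8 to 374.6 CPM, 170.9 to 766.3 CPM and 175.8 to 199.9 CPM, highest in 18-month animal 2. Of 11 tested macrophage identifiers, several of which share the symbol CD163, 5 rose and 3 fell at 18 months and 5 rose and 5 fell at 4 years, with sums of 321.2 to 529.4 CPM, 190.9 to 448.1 CPM and 127.3 to 165.5 CPM. No T cell marker of 4 passed at 18 months and 3 fell at 4 years. Neutrophil markers, which bear on MMP9, summed to 1.74 to 2.20 CPM at 6 months, 3.97 to 49.3 CPM at 18 months and 38.8 to 51.4 CPM at 4 years. The rise of the sum came mainly from S100A12 (means of 0.912, 18.8 and 42.4 CPM) and MPO (0.0903, 4.08 and 3.85 CPM). S100A8, S100A9, CSF3R and CXCR2 were too low to test, and all of these but CSF3R had lower means at both later ages. The part of these cell markers in the changes of the family was not tested.

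The order of levels by FPKM changed with age. At 6 months TIMP2 stood above TIMP3, then came MMP2 and MMP15, then MMP14 and MMP16, then MMP11 and TIMP4, then MMP9, and the genes of each of these pairs overlapped between animals. At 18 months TIMP2 was again first without overlap, followed by MMP15, TIMP3 and MMP2, which overlapped each other. By mean the next were MMP11, MMP14, TIMP4 and MMP16, and the wide range of MMP14 overlapped all of the other 3, while MMP11, TIMP4 and MMP16 did not overlap each other. At 4 years TIMP2 was first, MMP15 and TIMP3 overlapped behind it, and MMP2 followed alone. MMP11 then overlapped both TIMP4 above it and MMP14 below it, though TIMP4 and MMP14 did not overlap, and MMP16 came next alone. MMP9 was lowest at every age.

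The summed FPKM of the measured inhibitors was 54.4, 64.1 and 94.8 times that of the measured MMPs of the set in the 6-month animals. It was 8.66, 7.58 and 8.04 times at 18 months and 10.1, 9.51 and 7.57 times at 4 years. The 6-month ratios were thus several times the later ones in every animal, and the later ages overlapped. TIMP2 made up 96.9% to 97.2% of the summed inhibitor FPKM at 6 months and 92.8% to 94.1% later. MMP15 made up 23.5% to 34.5% of the summed MMP FPKM at 6 months and 53.3% to 77.3% at the later ages. TIMP1 is missing from these sums, and no test was run on them.

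Ratios of pairs of genes within a library do not depend on library scaling. They were compared over the 3 ages with an exact permutation test of 280 groupings (smallest possible p 0.00357), adjusted over 5 ratios, of which the last 2 were added after the values were seen. The ratio of MMP2 to TIMP2, on a log2 scale of CPM, was -6.99 ± 0.50 at 6 months, -5.38 ± 0.44 at 18 months and -5.01 ± 0.41 at 4 years (adjusted exact permutation p = 0.0179), a mean difference of 1.99 between 4 years and 6 months. The ratio of MMP14 to TIMP2 was -8.24 ± 0.55, -6.75 ± 0.27 and -6.33 ± 0.10 at the same ages (adjusted exact permutation p = 0.00893). In both, each of the 6 older libraries lay above all 6-month libraries. MMP16 was lower relative to MMP14 at the later ages, with a ratio of -0.32 ± 0.52 at 6 months against -2.12 ± 0.27 and -2.15 ± 0.26 (adjusted exact permutation p = 0.0286). Including the added ratios lowered the adjusted p for MMP2 to TIMP2 and MMP14 to TIMP2. Without adjustment the exact permutation p was 0.0143 for MMP2 to TIMP2, 0.00357 for MMP14 to TIMP2 and 0.0286 for MMP16 to MMP14.

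Of the added ratios, MMP15 to MMP14 was 0.96 ± 0.42 at 6 months, 3.76 ± 0.20 at 18 months and 2.92 ± 0.12 at 4 years (adjusted exact permutation p = 0.00893). The 3 ages did not overlap, and the 18-month animals, so spread in the level of each gene, were close in this ratio. The ratio of TIMP4 to TIMP2 was -12.44 ± 0.52, -8.67 ± 0.93 and -7.52 ± 0.24 at the same ages (adjusted exact permutation p = 0.0119). Both added ratios were picked from the values, so their p-values describe them and do not test them. When ages were permuted only within replicate numbers, a replicate block that allows 36 groupings, none of the 5 ratios passed (adjusted p 0.0694 to 0.111), although the numbers name different animals at each age.

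**Figure D3:**
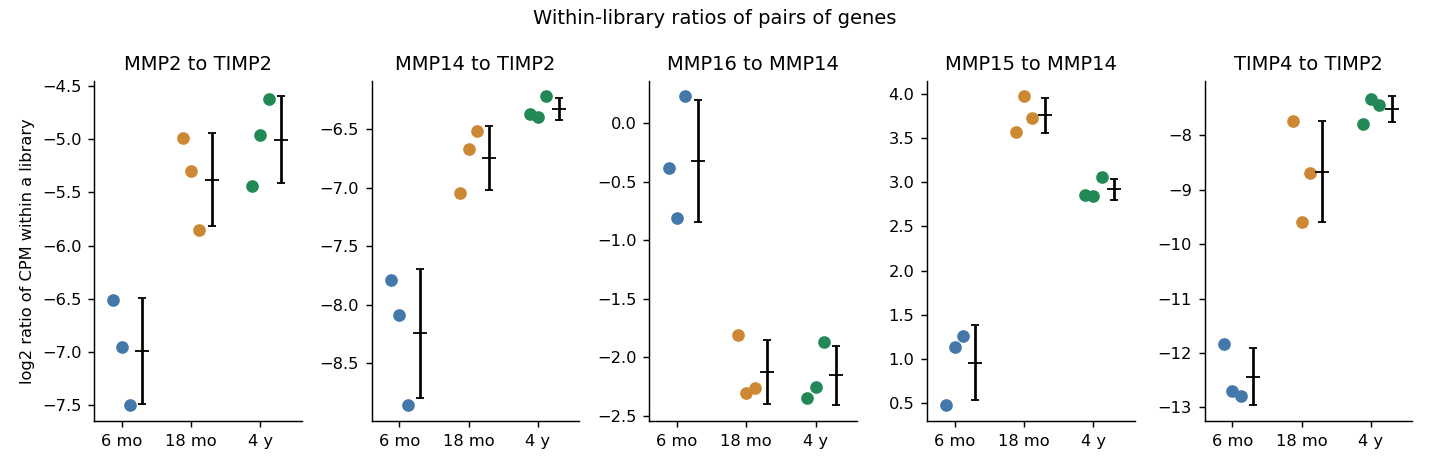
Log2 ratio of CPM of 5 pairs of genes within each library, by age (mo, months; y, years); points are animals and horizontal marks with bars the mean and SD. MMP2 to TIMP2, MMP14 to TIMP2, MMP15 to MMP14 and TIMP4 to TIMP2 are higher at the later ages than at 6 months, while MMP16 to MMP14 is lower.

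For MMP2 and MMP11 the folds of the deposited FPKM and of the counts differed by more than for the other tested members. The gene length implied by a count, its FPKM and the library total would be constant if the same length was used in every library. For TIMP2, TIMP3, TIMP4, MMP14 and MMP15 its highest value was 1.06 to 1.11 times its lowest. For MMP2 it was 3.42 to 3.51 kb at 6 months, 2.31, 3.46 and 3.06 kb at 18 months, and 2.23 to 2.34 kb at 4 years. For MMP11 it was 2.83 to 3.13 kb at 6 months, 1.88 to 2.36 kb at 18 months and 2.45 to 2.76 kb at 4 years. Of 10701 genes with enough counts, 10.4% varied as much as MMP2 and 8.64% as much as MMP11. How the FPKM lengths were set is not stated in the labels, and which of the 2 scales is affected was not tested. The folds of MMP2 and MMP11 are therefore less certain than those of the others.

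**Figure D4:**
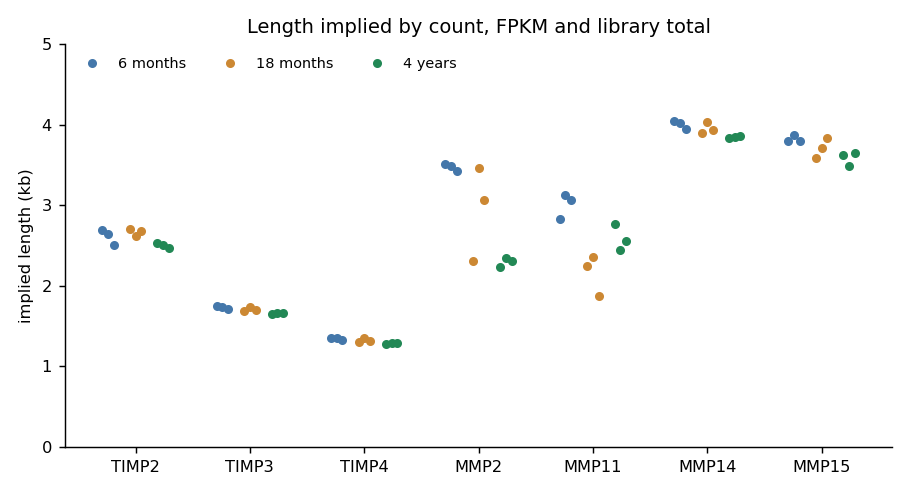
Length in kb implied by count, FPKM and library total for each gene, with 1 point per library and age marked. MMP2 and MMP11 vary by 1.57 and 1.67 times between libraries, and TIMP2, TIMP3, TIMP4, MMP14 and MMP15 by at most 1.11 times.

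Of the other MMP genes, a list of 17 symbols, 13 had a row and 11 identifiers were tested. At 18 months 6 rose, 1 fell and 4 did not pass (median log2 fold change 1.96), and at 4 years 6 rose, 2 fell and 3 did not pass (median 2.25), both against 6 months. Over all genes tested, 32.7% were called higher and 27.1% lower at 18 months, and 36.7% higher and 37.2% lower at 4 years. The risers of the list were MMP8, MMP13, MMP17, MMP20, MMP24 and MMP27, whereas no tested member of the set passed as a rise in the same fit. All of these risers were low, with means at 4 years from 0.457 CPM (MMP20) to 7.00 CPM (MMP24). MMP8 and MMP20 had no counts at 6 months, so the sizes of their rises are not given. MMP13, the collagenase of cartilage and bone, had 1 count over the 6-month libraries, 176 over the 18-month libraries and 334 over the 4-year libraries. Scaled for depth, that is 133.8-fold at 18 months (95% counting interval 23.7 to 5315, adjusted p = 0.000822) and 258.8-fold at 4 years (46.1 to 10251, adjusted p = 0.00026).

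MMP24, a membrane-type enzyme known mainly from the nervous system, rose by 4.88 ± 0.97 on the log2 scale at 18 months (adjusted p = 0.00257) and 6.04 ± 0.99 at 4 years (adjusted p = 0.000623). MMP27 had no counts at 6 months and was at least 15.2-fold higher at 18 months (adjusted p = 0.00602) and at least 24.3-fold higher at 4 years (adjusted p = 0.0025), against a floor of 3 counts over the group. MMP19 fell at 18 months (-2.19, adjusted p = 0.0278) and 4 years (-3.43, adjusted p = 0.0035), and MMP25 fell at 4 years but did not pass at 18 months, a difference between the comparisons that was not tested. With only the 6-month and 18-month libraries in the fit, 3 genes of this list passed in place of 7. Between 4 years and 18 months none of the 11 passed.

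Genes that activate or restrain MMPs mostly fell. Of 21 tested identifiers, 3 rose, 12 fell and 6 did not pass at 18 months (median -1.27), and 4 rose, 15 fell and 2 did not pass at 4 years (median -1.95), both against 6 months. The shares over all genes were 32.7% higher and 27.1% lower at 18 months, and 36.7% higher and 37.2% lower at 4 years. RECK, a membrane-anchored inhibitor of MMPs, went from 81.4 ± 14.0 CPM at 6 months to 9.66 ± 0.913 CPM at 4 years (-3.07 ± 0.28, adjusted p = 5.11e-05). PLAT, which converts plasminogen to plasmin, went from 378 ± 133 CPM at 6 months to 35.6 ± 13.8 CPM at 18 months (-3.41 ± 0.42, adjusted p = 0.000255). PLG, the plasminogen gene, rose by 4.35 ± 0.43 at 18 months (adjusted p = 0.000102) and 4.996 ± 0.44 at 4 years (adjusted p = 4.57e-05). PLG was low at every age, at 0.175 ± 0.077 CPM at 6 months, 3.67 ± 0.43 CPM at 18 months and 5.73 ± 1.44 CPM at 4 years. PCSK6, a proprotein convertase, rose by 3.37 ± 0.29 at 18 months (adjusted p = 6.83e-05) and 3.70 ± 0.30 at 4 years (adjusted p = 3.81e-05).

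The ADAM and ADAMTS metalloproteinases, some of which TIMP3 inhibits, also mostly fell. Of 24 tested genes, 3 rose, 15 fell and 6 did not pass at 18 months (median -1.34), and 4 rose, 16 fell and 4 did not pass at 4 years (median -1.87), both against 6 months. Among all genes, 32.7% rose and 27.1% fell at 18 months, and 36.7% rose and 37.2% fell at 4 years. None of the 21 genes of the preceding list, nor of these 24, passed between 4 years and 18 months. ADAM12, a proteinase of mesenchymal cells, fell by -4.06 ± 0.35 at 18 months (adjusted p = 6.55e-05) and -4.21 ± 0.35 at 4 years (adjusted p = 3.98e-05), and ADAMTS17 fell by -4.34 ± 0.43 at 4 years (adjusted p = 7e-05). ADAM9, a sheddase, fell by -2.13 ± 0.21 at 18 months (adjusted p = 0.000107). ADAMTS16 took the other direction, with a rise of 3.95 ± 0.40 at 18 months (adjusted p = 0.000111).

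Genes for the matrix that MMPs cut fell nearly throughout. The share of all genes that fell was 27.1% at 18 months and 37.2% at 4 years. Of 23 tested identifiers, 20 fell and 3 did not pass at 18 months (median -2.32), and all 23 fell at 4 years (median -3.32), both against 6 months. None passed between 4 years and 18 months, whereas 22 did without 18-month animal 1. COL4A2, a chain of basement membrane collagen, fell by -4.34 ± 0.41 at 18 months (adjusted p = 8.81e-05) and -5.76 ± 0.44 at 4 years (adjusted p = 3.75e-05). DCN, the collagen-binding proteoglycan decorin, fell by -4.01 ± 0.35 (adjusted p = 6.83e-05) and -4.55 ± 0.36 (adjusted p = 3.8e-05) at the same ages. DCN, COL1A1 and COL1A2 are in both this list and the fibroblast markers summed above.

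**Figure D5:**
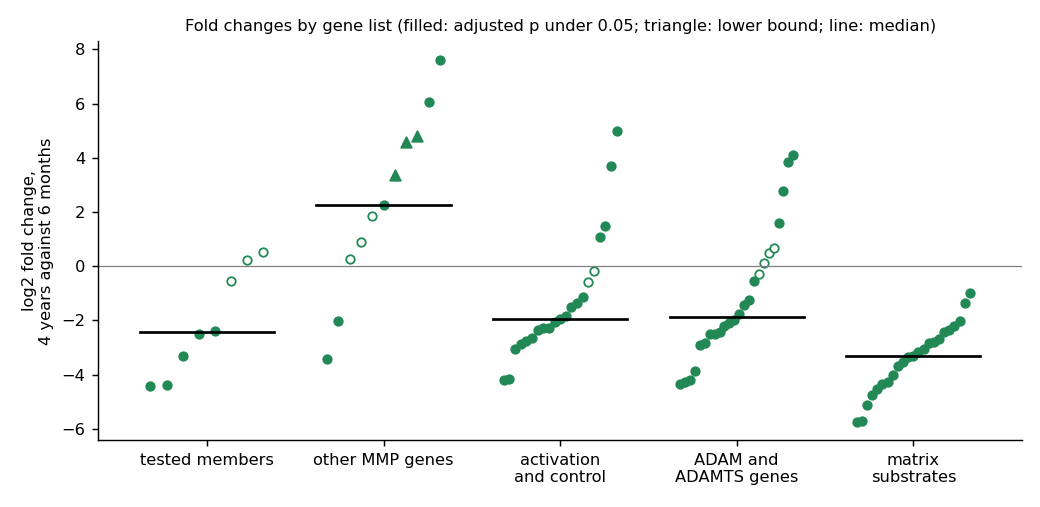
Log2 fold change at 4 years against 6 months of each tested gene in the family and in 4 related lists; filled points have an adjusted p under 0.05, triangles are lower bounds and lines are medians. The medians are -2.44 for the tested members and -3.32 for the matrix substrates, while the other MMP genes have a median of 2.25.

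The profiles over the 9 libraries were compared by Pearson's r of log2 CPM, as a description across libraries that share their ages and composition. TIMP2 and TIMP3 were close (r = 0.996), TIMP2 and MMP16 likewise (r = 0.989), and the lowest value among the 5 genes that fell was 0.951. MMP15 had r = 0.221 with TIMP2, and TIMP4 had r = -0.699 with TIMP3. Among all tested genes, the profiles most like TIMP2 were those of PTPRJ, a receptor tyrosine phosphatase (r = 0.9997), and EEF2, a translation elongation factor (r = 0.9989). For TIMP3 they were ST3GAL4 (r = 0.998) and the basement membrane collagen gene COL4A6 (r = 0.997), for MMP16 the activin subunit gene INHBA (r = 0.9986) and PCMTD1 (r = 0.998), and for MMP14 TSPAN33 (r = 0.998) and ALDH7A1 (r = 0.997). For MMP2 they were C4A (r = 0.993) and TAF9B (r = 0.992), and for MMP15 TNK2 (r = 0.995) and FBXL19 (r = 0.991). The closest profiles to MMP11 (PAK6 and DIAPH1, both r = 0.920) and TIMP4 (TNNT3, r = 0.936, and MAP3K6, r = 0.923) were less alike.

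Circular RNAs (circRNAs), formed when a downstream splice site joins an upstream one, gave another readout of the same genes from the same libraries. Of 73679 circRNAs, 15 came from 4 genes of the set, with 76 back-splice reads in all (23 at 6 months, 31 at 18 months and 22 at 4 years). MMP16 gave 9 circRNAs with 41 reads, TIMP2 gave 3 with 28 reads, MMP2 gave 2 with 5 reads, all at 6 months, and MMP14 gave 1 with 2 reads. The reads of MMP16 circRNAs were 6, 19 and 16 at 6 months, 18 months and 4 years, while the counts of the gene itself fell between the same ages. None of the 15 was among the 3877 circRNAs that passed the filter on low counts.

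The circRNA of the set with the most reads was novel_circ_014133 of MMP16 (chr14:74577904-74620492, plus strand in the coordinates of the files, spliced length 577 nt). It had 0, 0 and 0 reads at 6 months, 0, 4 and 2 reads at 18 months, and 4, 5 and 4 reads at 4 years. No 4-year library overlapped the 6-month ones, but with no filter edgeR gave an unadjusted p of 0.0200 and an adjusted p of 0.501 at 4 years against 6 months, where 0.996% of all circRNAs passed. In the authors' deposited table it has p = 0.0127 and FDR = 0.313. The next was novel_circ_025218 of TIMP2 (chr19:53498485-53500938, plus strand, 210 nt), with 18 reads in all and reads at every age. The third, novel_circ_025219, also of TIMP2, had 8 reads, 6 in 18-month animal 2 and 2 in 18-month animal 3.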

How the data were processed

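Testis libraries of 9 yaks were grouped by title into 3 ages. Per the submitters' processing notes, the build was UMD3.1 and the tools included StringTie 1.3.4, fastp 0.18.0 and HISAT2 2.1.0, with no roles stated. For the counting program and the circRNA caller, nothing is given in the sources used here, and circRNA coordinates are as in the files. The gene table, as deposited, holds an estimated count and an FPKM value per library, and for 3137 of 22183 genes some counts are fractional. Estimated counts were rounded. FPKM values were used as the authors deposited them. Back-splice read counts of circRNAs were taken as deposited, with 119.8 to 227.2 k per library. The authors' deposited comparison tables, whose log2 ratios, p-values and FDR are theirs, were used only where named. MicroRNA tables were not used. Overlapping gene spans come from the RefSeq yak annotation Bosgru_T2T1.0, matched by symbol. The gene identifiers (ENSBTAG) are those of cattle, so these spans need not match the gene models used in counting. MMP11, whose counts were fractional, overlapped no other gene there.

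edgeR 4.0.16 (R 4.3.3) was fitted with TMM scaling, filterByExpr, glmQLFit and glmQLFTest, age as the only factor and 6 residual degrees of freedom. The SE is the log2 fold change divided by the square root of F. Within-library ratios used log2 CPM with a prior count of 2. Alternatives were library-size and RLE scaling, DESeq2 1.42.0, no filter, unrounded counts, 2-age fits, a replicate block and each library left out. The fit was tested on simulated counts. Intervals and floors cover counting error only, and p-values reflect 3 animals per age.

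The members and lists were chosen with earlier results of these data known. All members are named. From each list the rule takes up to 3 called genes with the smallest p per comparison, of which some are printed, and MMP8, MMP17, MMP19, MMP20, MMP25 and MMP23 were named after their values were seen. It also takes the 2 genes nearest in profile to each member and the 3 member circRNAs with the most reads. Symbols on more than 1 identifier, such as LAMA2 and MMP1, are uncertain and are only counted.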

Additional observations from a re-analysis of the deposited data

How the results depend on the processing

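The falls of TIMP2, TIMP3, MMP2, MMP14 and MMP16 at 18 months and at 4 years against 6 months passed in every alternative run, with adjusted p at most 0.0215. Scaling by library size alone moved the median log2 fold change of all genes by 0.40 at 18 months and 0.29 at 4 years against 6 months, and the share of called genes that were higher went from 54.7% to 72.6% and from 49.7% to 58.3%. No member changed direction under any scaling.

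For 4 years against 18 months, the number of genes called was 1, and it was 0 with only those ages in the fit, 942 with DESeq2 and 0 to 5607 with 1 library left out (5607 without 18-month animal 1, 2 without 18-month animal 2, and 0 without each 4-year animal). The members called were 0 to 4 with 1 library left out, 4 without 18-month animal 1. The related lists then had 13 (activation and control), 22 (matrix), 10 (ADAM and ADAMTS) and 1 (other MMP) genes called, and 1, 7, 2 and 0 with DESeq2. Signs changed for 4 differences that had not passed: TIMP4 at 18 months against 6 months without 6-month animal 2 (-0.0082, adjusted p = 0.984, the highest being 0.25), and MMP2 (0.14, adjusted p = 0.734, the lowest being -0.80 over left-out libraries), MMP14 (0.054, adjusted p = 0.956, the lowest -0.92) and MMP16 (0.0082, adjusted p = 0.993, the lowest -0.81) at 4 years against 18 months without 18-month animal 2. The cause was not tested.

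With a replicate block, the ratios had adjusted exact permutation p-values of 0.104 for MMP2 to TIMP2 (difference of 1.99 between 4 years and 6 months), 0.0694 for MMP14 to TIMP2 (1.91), 0.111 for MMP16 to MMP14 (-1.83), 0.0694 for MMP15 to MMP14 (1.96) and 0.0926 for TIMP4 to TIMP2 (4.92). The block allows 36 groupings in place of 280, which raises the smallest possible p. It left 5, 5 and 0 members called and 9439, 11939 and 1 genes called, against 10026, 12372 and 1 without it. Animals with the same number deviated together in 1 of 9 pairs (correlations -0.135 to 0.104), and 2 libraries correlated best with their own number, so the numbers were taken as names only. The planned ratios of MMP9 and TIMP3 to TIMP1 were not run, because TIMP1 was not analysed here. Depth limits MMP9 and the circRNAs, which had too few reads to test after filtering.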

Other observations

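A gene listed as MMP23 (ENSBTAG00000010732), a membrane-anchored MMP known from ovary and testis, stood outside the chosen lists and was picked out after its values were seen. Its level was 86.6 ± 20.2 CPM at 6 months, 8.22 ± 6.49 CPM at 18 months and 3.93 ± 0.935 CPM at 4 years (SD, n = 3 animals per age). It fell by -3.40 ± 0.56 on the log2 scale at 18 months (edgeR adjusted p = 0.000996) and by -4.46 ± 0.59 at 4 years (adjusted p = 0.000215) against 6 months. At 4 years against 18 months the log2 fold change was -1.06 ± 0.53 (adjusted p = 0.269), and -1.47 without 18-month animal 1 (adjusted p = 0.0214).

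The authors' deposited tables of differing genes list the same 5 members that fell here and no other tested member. For 6 months over 4 years they give log2 ratios of FPKM of 4.07 for TIMP2, 4.01 for MMP16, 2.97 for TIMP3, 2.14 for MMP14 and 1.51 for MMP2, among 10565 genes. The count-based changes here, for 4 years against 6 months, were larger in size for all 5. They were -4.41 for TIMP2, -4.37 for MMP16, -3.32 for TIMP3, -2.49 for MMP14 and -2.40 for MMP2, where the gap was widest. The counts here were scaled by TMM, and scaling by library size alone raised the median of all genes by 0.29 in this comparison. The part of scaling in the gaps was not tested. The authors' deposited table for 4 years and 18 months lists 247 genes, of which 0 are members.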
